A study of Mus musculus with 14 samples.

Results

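The small nucleolar RNAs (snoRNAs) and small Cajal body RNAs (scaRNAs) of mouse anterior cingulate cortex are described here across 14 RNA sequencing libraries. Members were all genes of the deposited count tables whose symbol in the GENCODE annotation of build GRCm38 starts with Snora, Snord or Scarna and whose counts sum to 10 or more over the 14 libraries. Of 150 genes with such symbols, among 53465 gene identifiers, 59 were members: 37 of 99 box C/D snoRNAs (Snord), 15 of 42 box H/ACA snoRNAs (Snora) and 7 of 9 Cajal body RNAs (Scarna). A further 73 had no count in any library and 18 had between 1 and 9 counts. The members with the smallest totals were Snord4a with 12 counts, Scarna8 with 12 and Snord90 with 13, and the genes nearest under the minimum were Snord110 with 9 counts, Snord111 with 8 and Snora35 with 8. Members were thus selected on measured counts, summed over all groups. A member low in 1 group could reach the minimum through another group alone, so the number of members that differ between groups is a description and not support for a difference.

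The tissue came from 2 inbred strains, AKR/J (AKR) and C57BL/6NJ (B6N). Naive mice of each strain were sampled in 4 libraries, and mice with the condition OFL, the observational fear procedure, in 3. In that procedure a mouse watches another receive shocks. No age, sex, genotype beyond the strain or pooling is given in the labels, and nothing there ties the libraries to separate animals. The p-values therefore describe the spread from library to library, and this spread may be technical. The naive and the OFL libraries were deposited as separate count tables, so condition and library set cannot be told apart in any difference between them.

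Both kinds of snoRNA work as guides. Box C/D RNAs carry a C box near the start and a D box near the end, bind fibrillarin, Nop56, Nop58 and Snu13, and direct methylation of ribose in ribosomal RNA, whereas box H/ACA RNAs end in an ACA box, bind dyskerin, Nhp2, Nop10 and Gar1, and direct the change of uridine to pseudouridine. ScaRNAs do the same for the small nuclear RNAs of the spliceosome and reside in Cajal bodies. Most vertebrate snoRNAs are cut out of introns of a host gene after splicing and end without a poly(A) tail, while a few, such as Snord118 and Snord13, have their own promoters and act in processing or acetylation of ribosomal RNA precursors.

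The sequences on which the results turn are those of 3 of the 5 long members, which differed most between library sets, of the members most abundant for their length in naive libraries, and of members that differed between strains. They are the annotated GRCm38 transcripts of GENCODE M21, written 5′ to 3′, with capitals marking a C box (TGATGA within the first 20 bases), a D box (CTGA within the last 20 bases) or an ACA 3 bases from the end, as far as those letters were found.
Snord17, chr2:144265979-144266216, minus strand: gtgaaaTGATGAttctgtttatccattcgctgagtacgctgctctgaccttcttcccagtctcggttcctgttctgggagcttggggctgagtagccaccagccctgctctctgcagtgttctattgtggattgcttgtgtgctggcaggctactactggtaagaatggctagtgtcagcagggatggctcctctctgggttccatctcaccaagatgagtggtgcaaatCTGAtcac
Scarna6, chr1:87784556-87784820, plus strand: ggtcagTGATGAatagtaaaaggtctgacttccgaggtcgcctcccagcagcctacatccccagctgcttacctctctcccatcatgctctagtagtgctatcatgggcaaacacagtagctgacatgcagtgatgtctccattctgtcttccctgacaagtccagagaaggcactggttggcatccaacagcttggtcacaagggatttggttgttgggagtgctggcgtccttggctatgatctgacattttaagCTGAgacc
Snora73b, chr4:132352322-132352526, minus strand: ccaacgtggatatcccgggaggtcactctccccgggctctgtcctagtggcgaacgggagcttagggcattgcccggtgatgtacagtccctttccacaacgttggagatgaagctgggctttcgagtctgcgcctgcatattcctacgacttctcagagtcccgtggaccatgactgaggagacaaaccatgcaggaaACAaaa
Snora31, chr14:75847905-75848034, plus strand: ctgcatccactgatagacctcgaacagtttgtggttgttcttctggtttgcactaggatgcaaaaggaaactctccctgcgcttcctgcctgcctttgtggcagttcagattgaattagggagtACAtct
Snord91a, chr11:74905424-74905516, plus strand: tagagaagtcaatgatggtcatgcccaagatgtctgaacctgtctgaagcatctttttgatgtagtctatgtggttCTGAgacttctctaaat
Snord104, chr11:106500993-106501062, plus strand: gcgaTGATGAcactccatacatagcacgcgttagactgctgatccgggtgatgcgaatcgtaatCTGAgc
Snord53, chr17:71640879-71640956, plus strand: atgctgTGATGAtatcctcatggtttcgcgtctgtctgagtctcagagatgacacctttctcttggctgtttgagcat
Snord93, chr5:23852210-23852280, plus strand: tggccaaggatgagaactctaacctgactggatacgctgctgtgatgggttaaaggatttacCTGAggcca
Snord17 and Scarna6, which is a Cajal body RNA, both begin and end with box C/D letters. Snord91a and Snord93 have the D box letters but not the exact C box letters searched for, and Snord53 has the C box letters but no CTGA in its last 20 bases.

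Over the class, TGATGA was present in the first 20 bases of 22 of 37 box C/D members (59.5%) and CTGA in the last 20 bases of 36 (97.3%), searched on the transcript strand. Among the 62 box C/D genes under the count minimum the letters were found in 48 (77.4%) and 61 (98.4%). The ACA stood 3 bases from the end in 13 of 15 box H/ACA members (86.7%), in 22 of 27 box H/ACA genes under the minimum (81.5%) and in 0 box C/D genes.

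Total counts per library ranged from 13487311 to 25780227. Cortical marker genes were present in all libraries, with Slc17a7 (excitatory neurons) from 694 to 1463 CPM and Snap25 from 1398 to 1952 CPM, where CPM are counts per 1000000 counts, scaled by trimmed mean of M values (TMM). Markers of neighbouring tissue were lower, with Ttr (choroid plexus) from 0 to 1.23 CPM and Adora2a (striatum) from 0.700 to 3.33 CPM. The other striatal markers were not near absent, with Ppp1r1b from 23.1 to 46.6 CPM and Drd1 up to 18.3 CPM. In bulk tissue, fewer cells of a type and less RNA per cell cannot be told apart.

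SnoRNAs and scaRNAs together were a very small part of each library and a larger part of OFL than of naive libraries. The 59 members had 271 to 351 counts in a naive library, which is 0.00129% to 0.00157% of its total, and 1519 to 1756 counts in an OFL library, or 0.0108% to 0.0125%. The ranges did not overlap, and within each set the strains lay close together. Summed over libraries and scaled to library size, members were 8.47-fold higher in OFL libraries (95% exact interval 8.11 to 8.86, which covers counting error only). By class the ratio was 2.34 for box C/D, 8.16 for box H/ACA and 74.4 for Cajal body RNAs. Tissue markers differed between the sets as well. Of 7 cortex markers 6 were lower in OFL libraries in each strain, such as Slc17a7 by a log2 of -0.89 in AKR and -0.90 in B6N (edgeR adjusted p = 5.41e-16 and 4.21e-16) and Rbfox3, a marker of neurons, by -1.12 and -1.18 (edgeR adjusted p = 7.42e-17 and 2.8e-17), where 38.8% and 38.4% of all genes were lower. Of 6 markers of other tissue 3 were lower and 2 higher in each strain. Ttr was among the lower ones, at 0 to 2 counts in an OFL library against 5 to 28 in a naive one. The haemoglobin gene Hbb-bs was higher by a log2 of 0.86 in AKR and 1.21 in B6N (edgeR adjusted p = 6.5e-07 and 6.33e-11). The striatal markers moved in both directions. Drd1 was higher by a log2 of 0.516 and 0.699 in the same order, whereas Adora2a (-0.911 and -1.15) and Ppp1r1b (-0.807 and -0.718) were lower. The part of these differences in the members' results was not tested.

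**Figure D1:**
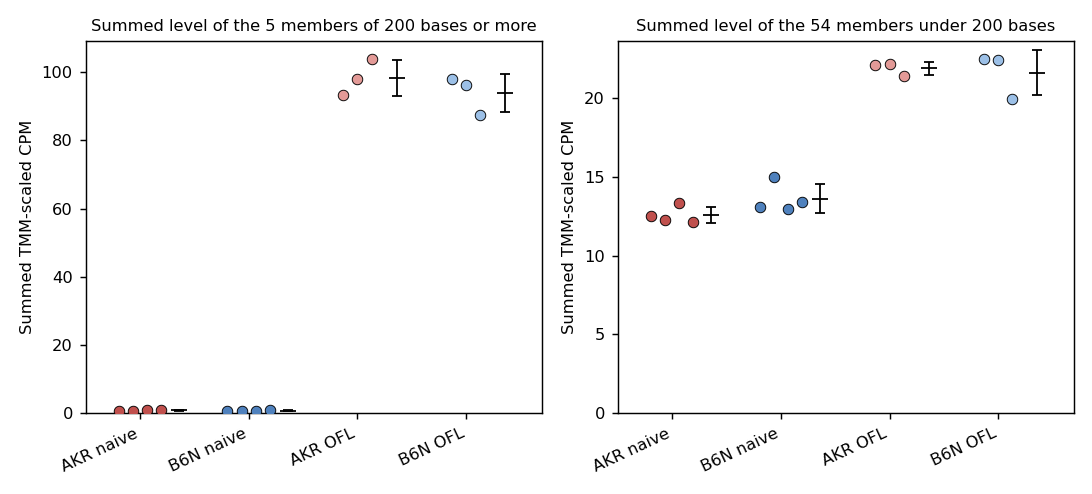
Summed level, in TMM-scaled CPM, of the 5 members of 200 bases or more (left) and of the 54 shorter members (right) in every library; points are libraries, bars the group mean and SD. The long members go from at most 1.08 CPM in naive libraries to at least 87.6 CPM in OFL libraries, the shorter ones from at most 15.0 to at least 19.96 CPM.

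Nearly all of that difference lay in 5 members of 200 bases or more, a division by length chosen after the values were seen. They were Scarna2 (414 bases), Scarna13 (275), Scarna6 (265), Snord17 (238) and Snora73b (205). Together they held 80.8% to 82.9% of the members' counts in OFL libraries and 4.58% to 8.17% in naive libraries. Their summed level was 116-fold higher in OFL libraries (exact interval 98.7 to 138), against 1.66-fold (1.56 to 1.77) for the 54 shorter members. Without Snord91a, the most abundant short member of the naive libraries, the ratio of the shorter members was 2.33.

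Scarna2 (ENSMUSG00000088185, chromosome 3, minus strand), a guide RNA for methylation of a spliceosomal small nuclear RNA, lay in no host gene on its strand. It had 4, 5, 5 and 8 counts in the naive AKR libraries and 8, 5, 2 and 4 in the naive B6N libraries, against 394, 496 and 489 in AKR and 544, 475 and 439 in B6N after OFL. Every OFL library stood far above every naive library, and the strains overlapped in both sets. The ratio of OFL over naive was 145 (107 to 203), and the log2 difference was 6.99 (SE 0.16) in AKR and 7.30 (SE 0.16) in B6N, with edgeR adjusted p = 1.69e-23 and 9.36e-24.

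Scarna13, a guide for pseudouridine in spliceosomal RNAs, lies in the noncoding gene Snhg10, with 23.6% of its bases in the exon of the microRNA gene Mir3069. Naive libraries gave 3, 1, 5 and 5 counts in AKR and 4, 4, 2 and 4 in B6N, and OFL libraries gave 238, 249 and 259 in AKR and 245, 239 and 250 in B6N. Its ratio was 111 (76.4 to 168), whereas that of Snhg10 itself was 1.41. Scarna6, which lies in an intron of the autophagy gene Atg16l1, had 5, 5, 4 and 8 counts in naive AKR, 3, 5, 3 and 12 in naive B6N, 225, 239 and 260 in AKR after OFL and 201, 225 and 198 in B6N after OFL. The ratio was 62.9 (46.7 to 86.6) for Scarna6 and 1.16 for Atg16l1. For both RNAs the library sets did not overlap.

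Snord17, the longest box C/D member, lies in an intron of Snx5, which encodes a sorting nexin. It had 4, 6, 5 and 4 counts in naive AKR, 3, 2, 6 and 3 in naive B6N, 149, 171 and 160 in AKR after OFL and 198, 168 and 128 in B6N after OFL. The ratio was 62.0 (43.8 to 90.5), whereas Snx5 had 14484 counts in naive and 6903 in OFL libraries and, scaled to library size, a mean of 78.9 CPM in AKR and 84.2 CPM in B6N after OFL against 79.6 and 83.6 CPM in naive libraries. Snora73b, a box H/ACA RNA needed for cleavage of the ribosomal RNA precursor, had 0 counts in all 8 naive libraries, 252, 252 and 259 counts in AKR after OFL and 240, 269 and 222 in B6N after OFL. Set against a floor of 3 counts over the naive libraries, it was 1045-fold higher after OFL, and the exact interval of its ratio had a lower limit of 849. Its whole length lies under an exon of Gm17300 on the other strand, and 45.1% of its stretches of 31 bases also occur in Snora73a or other annotated transcripts, so its counts are uncertain. Its host Snhg3 was likewise at 0 in the naive libraries, with 30, 39 and 23 counts in AKR and 30, 35 and 22 in B6N after OFL, and Gm17300 had 0 to 9 counts in any library.

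**Figure D2:**
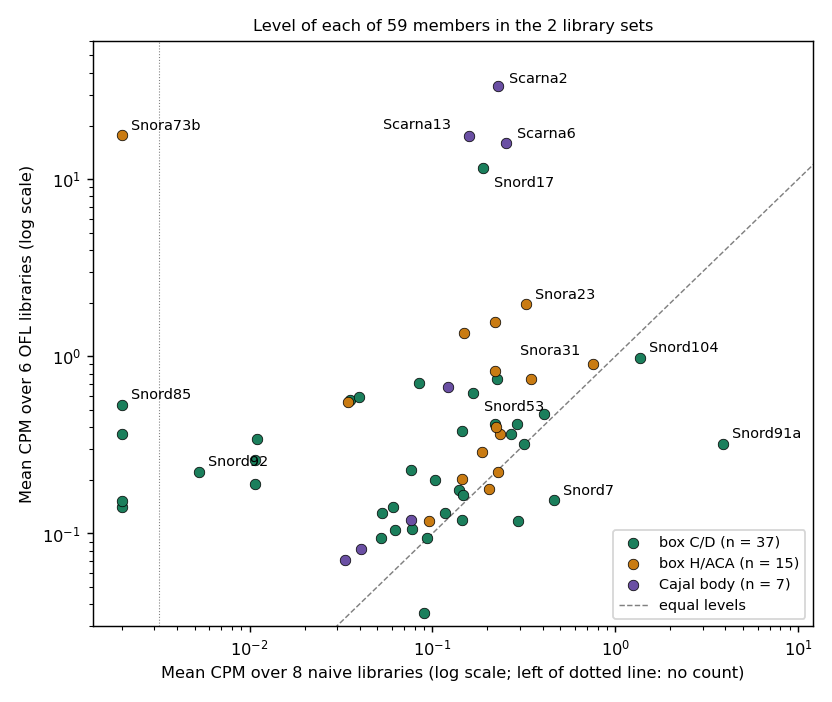
Mean level of each of the 59 members in the 8 naive libraries (horizontal) and the 6 OFL libraries (vertical), in TMM-scaled CPM on log axes, coloured by class; points left of the dotted line had no naive count. Scarna2, Scarna13, Scarna6, Snord17 and Snora73b lie above 10 CPM in OFL libraries, and Snord91a lies farthest below the line of equal levels.

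Per kilobase of annotated length the order of the members differed between the sets. In OFL libraries Snora73b was the highest at 86.3 CPM per kilobase, followed by Scarna2 at 80.9, Scarna13 at 63.7, Scarna6 at 60.3 and Snord17 at 48.3, and the highest shorter member was Snord104 at 14.05. In naive libraries Snord91a led with 41.7 CPM per kilobase, ahead of Snord104 at 19.5 and Snora31 at 5.77, and the 5 long members stood between 0 and 0.952. The median member was at 2.94 CPM per kilobase in OFL and 1.16 in naive libraries.

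**Figure D3:**
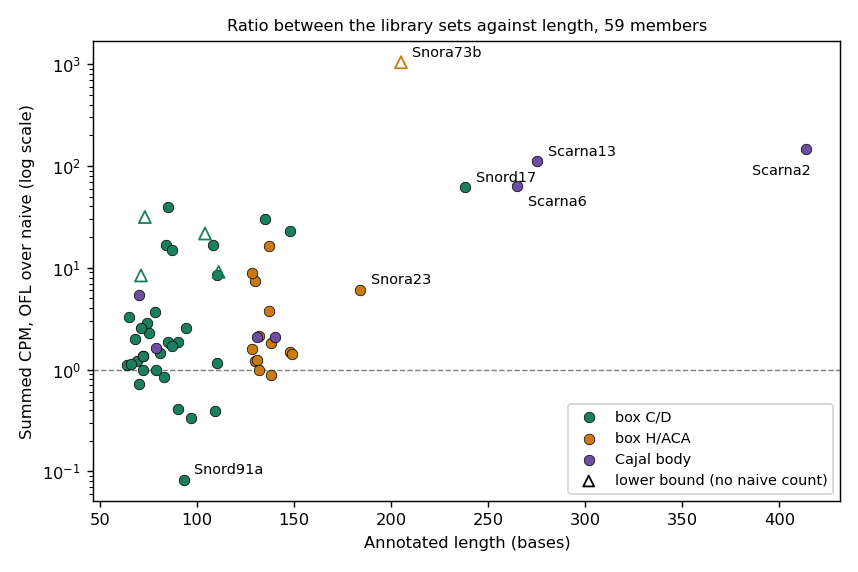
Ratio of summed CPM in OFL over naive libraries (log axis) against annotated length in bases for the 59 members. Open triangles, labelled lower bound, set the 5 members without a naive count against a floor of 3 counts. All 5 members of 200 bases or more lie above 60, and the shorter members range from 0.0823 for Snord91a upwards.

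Among all 59 members 31 had a ratio above 2 or no naive count, 4 had a ratio under 0.5 and 24 lay between. No count at these cuts is given here for all genes. By the edgeR test 39.8% of all genes tested were higher and 38.8% lower in AKR, and 40% and 38.4% in B6N. Members with few naive counts reached the minimum through OFL libraries, so the 31 are partly set by the selection and nothing is read from them. Across the 54 members with a naive count, Spearman's rank correlation of length with the ratio was 0.355, and it was 0.188 over the 50 of these under 200 bases. The members share libraries and depth, so these are descriptions. Other small nuclear and nucleolar RNA genes of 200 bases or more with the same count minimum (6 genes) had a summed ratio of 30.5 and a median of 14.3, with 55.4% of their OFL counts in Gm25395. Those of 60 to 99 bases (173 genes) had a summed ratio of 7.49. Their median was 9.53, which leaves out 74 genes without a naive count. The 30 members of that length were at 0.997, with a median ratio of 1.67, and at 1.69 in sum without Snord91a. Of the other genes with lengths in between, the 296 shorter ones had a summed ratio of 5.35 and a median of 4.59. The 62 longer ones had a summed ratio of 17.97 and a median of 7.73. Among these other genes neither sums nor medians rose steadily with length.

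Of the short box H/ACA members, which guide pseudouridine formation in ribosomal RNA, several were higher in OFL libraries, and their summed ratio was 2.89 (14 members). Snora23, in an intron of the nuclear import gene Ipo7, had 7, 4, 8 and 9 counts in naive AKR and 7, 6, 9 and 7 in naive B6N, against 33, 25 and 27 in AKR and 31, 26 and 24 in B6N after OFL. Its ratio was 6.11 (4.50 to 8.41), and no OFL library overlapped a naive one. Snora30 stood at 7.35 (5.09 to 10.8), with 52.0% of its stretches of 31 bases shared with the predicted gene Gm25133, and Snora78, in the noncoding gene Snhg9, at 8.86 (5.79 to 14.03) beside 6 counts of Snhg9 over the naive and 3 over the OFL libraries. Snora2b, with 67.2% of its bases in an exon of its host Kansl2, had a ratio of 3.77 (2.51 to 5.73).

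Snora31 was among the 8 of 14 short box H/ACA members whose ratio lay between 0.5 and 2. The median ratio of the 14 was 1.71. This RNA, in an intron of the abundant message Tpt1, had 16, 20, 13 and 17 counts in naive AKR, 22, 21, 12 and 13 in naive B6N, 13, 11 and 13 in AKR after OFL and 17, 13 and 10 in B6N after OFL. Scaled to library size it was 0.761 ± 0.0742 CPM (SD, n = 4) in naive AKR, 0.740 ± 0.194 (SD, n = 4) in naive B6N, 0.892 ± 0.109 (SD, n = 3) in AKR after OFL and 0.928 ± 0.230 (SD, n = 3) in B6N after OFL, and the sets overlapped. The log2 difference of 0.22 (SE 0.28) in AKR and 0.32 (SE 0.27) in B6N did not pass the test (edgeR adjusted p = 0.502 and 0.306), while Tpt1 itself had a ratio of 0.528.

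The 4 shorter Cajal body RNAs had lower ratios than Scarna2, Scarna13 and Scarna6, and their intervals did not reach those of the long ones. Scarna9, in an intron of the centrosomal gene Cep295, had 2, 2, 3 and 2 counts in naive AKR, 5, 6, 0 and 2 in naive B6N, 10, 14 and 7 in AKR after OFL and 12, 7 and 7 in B6N after OFL. Its OFL libraries all lay above its naive ones, with a ratio of 5.44 (3.27 to 9.34), and Cep295 stood at 2.47. Scarna17, with 81.6% of its stretches of 31 bases shared with the predicted gene Gm25443, had a ratio of 1.61 (0.634 to 3.99), and had 0 to 6 counts in a library. The intervals ran from 0.561 to 7.85 for Scarna8 and from 0.628 to 7.01 for Scarna3a, which had 0 to 4 counts in a library. For these 3 RNAs the intervals include equal levels.

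Short box C/D members were the most varied, with a summed ratio of 1.17 over 36 genes. Snord91a, from an intron of Tsr1, which encodes a ribosome maturation factor, was lower in OFL libraries. It had 76, 72, 77 and 76 counts in naive AKR and 107, 91, 81 and 109 in naive B6N, but 4, 3 and 6 in AKR and 2, 4 and 8 in B6N after OFL. The sets were far apart, with 12.2-fold more in naive libraries (8.28 to 18.6), and the log2 difference of OFL minus naive was -3.46 (SE 0.28) in AKR and -3.68 (SE 0.27) in B6N, with edgeR adjusted p = 1.72e-11 and 1.26e-12. Tsr1 had a ratio of 0.999, and the nearest exon on the other strand, of Srr, lay 843 bases away.

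Snord7, a guide for methylation of a spliceosomal RNA from the noncoding gene AA465934, was also lower in OFL libraries of B6N (log2 -1.82, SE 0.48, edgeR adjusted p = 0.00122), while in AKR its log2 difference of -1.13 (SE 0.57) did not pass the test (edgeR adjusted p = 0.0707). Its host AA465934 was lower as well, with a ratio of 0.482 and a log2 of -1.43 (SE 0.24) in B6N and -0.62 (SE 0.25) in AKR. Snord104, a box C/D RNA without a host on its strand, had 23, 40, 28 and 25 counts in naive AKR, 33, 36, 28 and 30 in naive B6N, 18, 8 and 12 in AKR after OFL and 19, 12 and 14 in B6N after OFL. Its sets overlapped once scaled, its ratio was 0.717 (0.552 to 0.923), and neither strain's difference passed the test (edgeR adjusted p = 0.0688 in AKR and 0.148 in B6N). The 3 other members named for not being higher in OFL libraries had at most 12 counts in a library. Their ratios were 0.412 for Snord88c (0.186 to 0.820), 0.840 for Snord32a (0.360 to 1.81) and 0.394 for Snord23 (0.0735 to 1.375). The intervals of Snord32a and Snord23 include equal levels.

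Snord98, in an intron of the transcription coactivator gene Ccar1, had 2, 8, 7 and 9 counts in naive AKR, 4, 5, 2 and 3 in naive B6N, 9, 18 and 10 in AKR after OFL and 11, 8 and 7 in B6N after OFL. The sets overlapped in raw counts but not once scaled. Its ratio was 3.31 (2.19 to 5.04), and Ccar1 stood at 1.17. Ratios of box C/D RNAs in ribosomal protein genes varied, and those named here were chosen after their values were seen. Snord15a in Rps3, with 2 counts over the naive libraries, had a ratio of 23.1 (5.68 to 203). Snord43 in Rpl3, with 6 such counts, had a ratio of 16.8 (7.18 to 48.0). Both met the count minimum through OFL libraries, so the selection favoured high ratios for them. Snord42b in Rpl23a, with 31.9% of its bases in an exon of that host, stood at 1.21 (0.596 to 2.37), and Rpl23a itself at 9.46. Rps3 had a ratio of 0.974 and Rpl3 of 0.871.

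Besides Snora73b, the members without a count in any naive library were 4 short box C/D RNAs. Snord85 had 10, 7 and 6 counts in AKR and 8, 6 and 8 in B6N after OFL. That was 31.5-fold above the naive floor, with a lower limit of the exact interval of 24.6. Snord13, which has its own promoter and takes part in acetylation of ribosomal RNA, had 3, 11 and 9 counts in AKR and 4, 1 and 3 in B6N after OFL. It was 21.7-fold above the naive floor, with a lower limit of 16.6. The others, Snord90 and Snord4a, had 0 to 5 counts in an OFL library, and Snord4a lies wholly under an exon of Tlcd1 on the other strand. Snord118, which also has its own promoter, had 2 counts over the 8 naive libraries, 4, 6 and 6 in AKR and 5, 6 and 2 in B6N after OFL, a ratio of 30.4 (7.70 to 263). Of its stretches of 31 bases, 32.4% are shared with the predicted gene Gm24208. Snord70, which is cut from an intron of Nop58, had a ratio of 15.0 (6.77 to 39.2). All members named in this paragraph had fewer than 10 counts over the naive libraries and met the minimum through OFL libraries. Their place among RNAs counted mainly there was thus set by the selection.

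In the fit across all genes, 23 members passed the expression filter for the comparison of OFL with naive libraries, and 18 of them were called at an adjusted p under 0.05 in AKR and 19 in B6N, where 78.7% and 78.4% of all genes tested were called. In AKR 17 were higher and 1 lower, and in B6N 17 were higher and 2 lower, beside 39.8% higher and 38.8% lower among all genes in AKR and 40% and 38.4% in B6N. The 36 other members did not pass the filter, and a member could pass it through the libraries where it was high alone, so these counts describe only the members tested. Snord7 was called in B6N and not in AKR, but its interaction of 0.69 did not pass the test (SE 0.85, edgeR adjusted p = 0.753).

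Few members passed the filter for the comparisons of AKR with B6N, so the number called says little about how alike the strains were. The differences found rested on small counts. In naive libraries 5 members passed the filter and 1 was called, Snord7, where 37.8% of all genes were called. Snord7 had 10, 5, 7 and 6 counts in AKR and 14, 18, 9 and 13 in B6N, and its scaled level was 0.332 ± 0.124 CPM (SD, n = 4) and 0.591 ± 0.155 CPM (SD, n = 4) in the same order, with overlap between the groups. Its log2 difference was -0.85 (SE 0.31, edgeR adjusted p = 0.0410). The call was lost without any of 6 of the 8 libraries: the adjusted p was 0.129 without AKR replicate 2, 0.0590 without AKR replicate 3, 0.110 without AKR replicate 4, 0.0634 without B6N replicate 1, 0.129 without B6N replicate 2 and 0.0618 without B6N replicate 4. After OFL the RNA had 4, 1 and 1 counts in AKR and 2, 3 and 2 in B6N and did not pass the filter. Its host AA465934 stood at 1.66 CPM in naive AKR and 2.34 CPM in naive B6N.

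**Figure D4:**
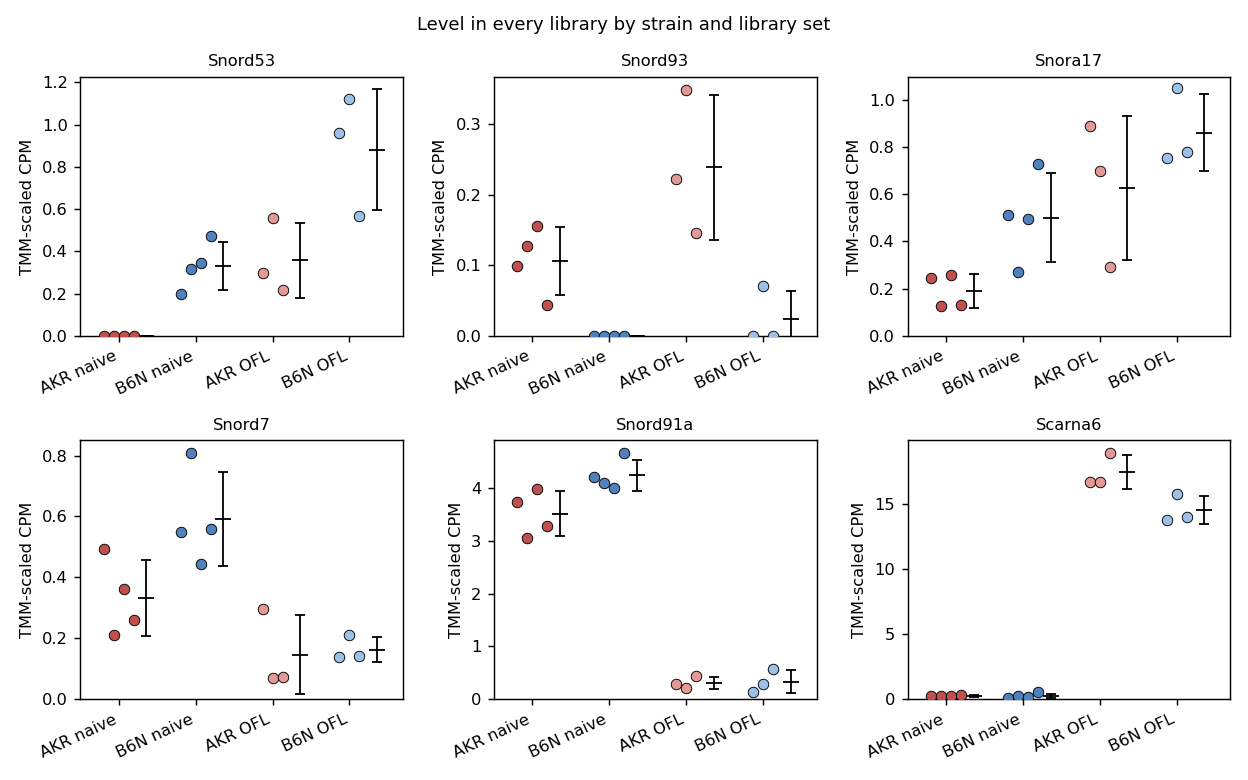
Level of 6 members in every library, in TMM-scaled CPM, by strain and library set; points are libraries, bars the group mean and SD. Snord53 is at 0 in all 4 naive AKR libraries and above 0 in the other 10, and Snord93 is at 0 in all 4 naive B6N libraries.

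The level of Snord91a was 3.52 ± 0.425 CPM (SD, n = 4) in naive AKR libraries and 4.25 ± 0.302 CPM (SD, n = 4) in those of naive B6N, and its log2 difference of -0.28 (SE 0.12) did not pass the test (edgeR adjusted p = 0.0725). After OFL 15 members passed the filter and 0 were called by edgeR, where 16.4% of all genes were called. At an unadjusted p under 0.05 there was 1, Scarna6. Its level was 17.4 ± 1.30 CPM (SD, n = 3) for AKR and 14.5 ± 1.07 CPM (SD, n = 3) for B6N (log2 0.25, SE 0.09, edgeR adjusted p = 0.0709), and DESeq2 called 0. The other long members differed between strains by a log2 of -0.04 (Scarna2, SE 0.08), 0.06 (Scarna13, SE 0.08), 0.10 (Snora73b, SE 0.09) and -0.00 (Snord17, SE 0.12).

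The largest strain difference among named members belonged to Snord53, a box C/D RNA in an intron of Wdr43, which encodes a ribosome biogenesis factor. It had 0 counts in all 4 naive AKR libraries against 5, 7, 7 and 11 in naive B6N, and 4, 8 and 3 in AKR against 14, 16 and 8 in B6N after OFL. Naive B6N was 9.47-fold above a floor of 3 counts over the AKR libraries, and the exact interval of its ratio to AKR had a lower limit of 7.23. After OFL B6N was 2.45-fold higher (1.32 to 4.79), without overlap. Yet little lay between the highest AKR library (0.557 CPM) and the lowest B6N library (0.566 CPM). Snord53 did not pass the expression filter in either strain comparison. Without the filter its log2 difference was -5.89 in naive libraries (edgeR adjusted p = 9.8e-08) and -1.28 after OFL (edgeR adjusted p = 0.0280), the first of which depends on the prior count. With the filter and 1 library left out, it was tested after OFL in 4 fits, with an adjusted p of 0.148 without AKR OFL replicate 1, 0.169 without replicate 3, 0.0281 without replicate 2 and 0.0251 without B6N OFL replicate 3.

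The strain by condition interaction, the change in AKR minus that in B6N, was called for 1 of 23 members tested, again Snord53, where 5.15% of all genes were called. The interaction was 4.38 (edgeR adjusted p = 0.0259), a value that depends on the prior count because a group is at 0. The call was lost without AKR naive replicate 2 (adjusted p = 0.0520), AKR naive replicate 4 (0.0549) or AKR OFL replicate 2 (0.0841). Wdr43 had a log2 strain difference of -0.18 (SE 0.05, edgeR adjusted p = 0.00665) in naive libraries and -0.32 (SE 0.06, edgeR adjusted p = 0.00134) after OFL, in the same direction and far smaller. Snord92, from the same host and chosen after its values were seen, had 1 count over all naive libraries and 2, 6 and 2 counts in AKR and 2, 5 and 2 in B6N after OFL, so that the strains overlapped.

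Also chosen after their values were seen were 3 low members that no main strain comparison tested in naive libraries. Snord93, in the noncoding gene 2700038G22Rik, had 2, 3, 3 and 1 counts in naive AKR and 0 in all 4 naive B6N libraries, and 3, 5 and 2 in AKR against 0, 1 and 0 in B6N after OFL. The strains did not overlap in either set, and the host was higher in AKR as well, by a log2 of 1.82 (SE 0.17) in naive libraries and 1.52 (SE 0.29, edgeR adjusted p = 0.000864) after OFL. Of the stretches of 31 bases in Snord93, 29.3% also occur in the microRNA gene Mir3096, so its counts are uncertain.

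Snord87, in the noncoding host Snhg6, had 2, 3, 2 and 3 counts in naive AKR and 0, 0, 0 and 1 in naive B6N, while the strains overlapped after OFL. Snhg6 itself was lower in AKR, by a log2 of -0.50 (SE 0.09, edgeR adjusted p = 0.000281) in naive libraries and -0.63 (SE 0.13, edgeR adjusted p = 0.00225) after OFL, opposite to Snord87 in naive libraries. Snora17, with 30.4% of its stretches of 31 bases shared with 4 predicted genes and its counts thus uncertain too, had 5, 3, 5 and 3 counts in naive AKR and 13, 6, 10 and 17 in naive B6N, without overlap, and 12, 10 and 4 against 11, 15 and 11 after OFL, with overlap. Without the expression filter the log2 difference in naive libraries was 4.29 for Snord93 (edgeR adjusted p = 0.00824), 2.87 for Snord87 (edgeR adjusted p = 0.0355) and -1.41 for Snora17 (edgeR adjusted p = 0.00455).

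Hosts and guests were set side by side for the 52 members that lie within another gene on their strand. They had 44 distinct hosts, of which 11 were ribosomal protein genes holding 14 members, such as Rpl13a with Snord32a and Snord35a and Rpl3 with Snord43 and Snord83b. Of the 43 hosts with a naive count, 37 had a ratio of OFL over naive between 0.5 and 2. The members ranged from 0.0823 to 1045, the latter against the floor of 3 naive counts. Across 48 members the rank correlation of a member's ratio with its host's was 0.567, whereas summed counts of member and host had a rank correlation of 0.019 in naive and 0.0554 in OFL libraries (52 members). These are descriptions over genes that share libraries, and several members share a host. Members of 1 host could differ: in Rpl3 Snord43 was at 16.8 (7.18 to 48.0) and Snord83b at 2.58 (1.49 to 4.51). In Nop58 Snord70 was at 15.0 (6.77 to 39.2) and Snord11 at 16.8 (3.95 to 151). With 7 and 2 counts over the naive libraries, these 2 ratios are too uncertain to compare. Snord43, Snord70 and Snord11 all met the count minimum through OFL libraries.

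**Figure D5:**
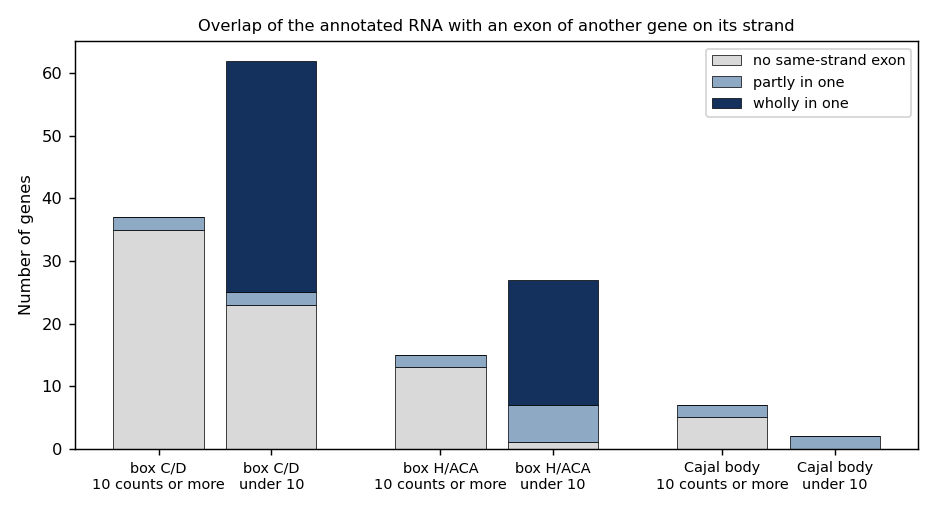
Number of genes by class, with 10 or more counts or under that minimum, split by whether the annotated RNA lies outside, partly in or wholly in an exon of another gene on its strand. No gene with 10 or more counts lies wholly in such an exon, and 57 of the 91 under the minimum do.

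Genes under the minimum differed from members in position. An exon of another gene on the same strand overlapped 67 of the 91 (73.6%), with 57 wholly inside one, against 6 of 59 members (10.2%) and 0 wholly inside. Snora73a (205 bases), Snora74a (196 bases) and Scarna10 (325 bases) had 0 counts in all libraries and overlap such an exon, although they are long. How the authors' counting treated reads that fall in exons of 2 genes is not given in the sources used here, and its part in these zeros was not tested. The brain-enriched Snord116 cluster, whose loss marks Prader-Willi syndrome, is annotated here as 17 genes in the host Snhg14. The cluster had 11 counts in all over 14 libraries and no member, and every copy shares stretches of 31 bases with another transcript. Snhg14 itself was at 182 ± 20.7 CPM (SD, n = 4) in naive AKR and 244 ± 5.84 (SD, n = 4) in naive B6N, and at 1608 ± 5.12 (SD, n = 3) and 1613 ± 35.0 (SD, n = 3) after OFL.

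Core protein partners of the RNAs differed between the library sets and, for some, between naive strains. Of the 4 box C/D core proteins, 2 were higher in naive AKR, the methyltransferase Fbl (log2 0.18, SE 0.06, edgeR adjusted p = 0.0174) and Nop56 (log2 0.20, SE 0.04, edgeR adjusted p = 0.000777), and Snu13 was lower (log2 -0.11), while 0 were called between strains after OFL. Of the 4 box H/ACA core proteins 1, Nhp2, was called in naive libraries (log2 0.21, SE 0.06, edgeR adjusted p = 0.0114). Over all genes 37.8% were called in naive libraries and 16.4% after OFL. Between library sets 1 of the 8 core genes was higher and 5 were lower in each strain, where 78.7% and 78.4% of all genes were called. Fbl fell by 1.02 in AKR and 0.88 in B6N on the log2 scale and Gar1 by 1.46 and 1.47, whereas Nop58, the host of Snord70 and Snord11, rose by 0.70 and 0.82. The median of the 4 box C/D core genes was -0.44 in AKR and -0.37 in B6N, and that of the 4 box H/ACA core genes -0.43 and -0.38, beside -0.01 and -0.00 over all genes tested.

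Among 12 assembly factors, which load the core proteins onto the RNA, 4 were lower and 0 higher in naive AKR, near the 37.8% called over all genes, and 3 were lower and 0 higher in AKR after OFL, beside 16.4%. Naf1, which brings dyskerin complexes to the nascent RNA, was lower in AKR in both sets (log2 -0.35, SE 0.07, and -0.49, SE 0.10), as was Znhit3 (log2 -0.48, SE 0.07, and -0.46, SE 0.12). The lists' medians were -0.05 and -0.03, beside 0.01 and 0.00 over all genes. Coil, which encodes the scaffold protein coilin of the Cajal body, was also lower in AKR, by a log2 of -0.22 (SE 0.06) in naive libraries and -0.43 (SE 0.09) after OFL. Of the 9 Cajal body proteins, it was 1 of 2 called in naive libraries and the 1 called after OFL (edgeR adjusted p = 0.00517 and 0.00269), shares under the 37.8% and 16.4% of all genes.

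Other small RNAs without a poly(A) tail also differed between the library sets. Of 15 such genes 7 passed the filter, 5 of them with at most 2 counts in any naive library, so that they passed through OFL libraries alone and their direction was set by the filter. In AKR 7 of the 7 were called higher and in B6N 6, beside 39.8% and 40% of all genes, a description with nothing read from it. Rn7sk, an inhibitor of transcription elongation, had 33 to 78 counts in naive and 10046 to 12931 in OFL libraries. Rny3, a Y RNA, had at most 1 count in a naive library and 63 to 77 in OFL libraries, and Rnu12, a spliceosomal RNA, at most 1 and 47 to 61. The labels name 1 kit for all libraries, a kind built on capture of poly(A) tails. Whether the retention of RNAs without such a tail differed between the sets was not tested and cannot be told apart from the condition.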

How the data were processed

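RNA of anterior cingulate cortex was counted in 14 libraries (4 naive and 3 OFL libraries per strain). The kit was a TruSeq kit and the RNA a Trizol extract, per the labels; per the submitters' processing notes, CASAVA, cutadapt 2.7, TopHat2 2.1.1, HTSeq and edgeR were used with GRCm38. The annotation release, the strand setting and the treatment of ambiguous reads are not given in the sources used here. Without strand, reads of genes that overlap on opposite strands cannot be told apart. The authors deposited raw counts per Ensembl gene in 2 tables, which are the values used here (14 columns, 0 left out); the deposited CPM tables were not used.

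GENCODE M21 gave names to 53360 of 53465 identifiers, positions and transcript sequences. Hosts are the smallest genes on the same strand that span a member. Shared stretches of 31 bases were searched in all annotated transcripts on both strands, not in the genome as planned. Tests were edgeR 4.0.16 in R 4.3.3 (quasi-likelihood F-test, two-sided, expression filter by group, TMM, Benjamini-Hochberg over all genes tested, called at adjusted p under 0.05), fitted within naive and within OFL libraries for the strains, and over all 14 libraries for the rest. The SE is the log2 difference over the square root of F. CPM are counts per 1000000 TMM-scaled counts. Ratios are summed counts over summed scaled library sizes with an exact (Clopper-Pearson) 95% interval, and a floor is 3 counts over a group; both cover counting error only. Scripts were tested on simulated data, with changes placed only in genes of far more counts than most members. Recovery at the depth of most members was thus not tested. Alternatives were DESeq2 1.42.0, other scalings and filters, a replicate block, other libraries in the fit and leaving out each library.

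The members and lists were chosen with earlier results of these data known. Members named by rule were the most abundant per kilobase in OFL libraries (6 box C/D, 6 box H/ACA and 4 Cajal body RNAs), called members, RNAs of known function, those not higher in OFL libraries and those nearest the minimum; from the lists, called genes. Results for some host genes are not reported here.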

Additional observations from a re-analysis of the deposited data

Results flagged for a closer look

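In the 60 groups of 4 libraries looked at, 1 held a library set apart from the others, and chance alone sets apart about 1 in 20 such groups. This was Snord87 in naive B6N, with 1 count (0.0429 CPM) in replicate 4 and 0 counts in the other 3 libraries.

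The change from naive to OFL libraries differed between strains for 5 of the 129 members, hosts and list genes tested (3.88%), by edgeR's test of the interaction (AKR change minus B6N change, log2), beside 5.15% of all genes. Snord53 stood at 4.38 (adjusted p = 0.0259), Snhg14 at 0.42 (adjusted p = 0.00093), Ccar1, the host of Snord98, at 0.28 (adjusted p = 0.0111) and Rn7sk at 0.68 (adjusted p = 0.0322). Rprl3, a copy of the RNase P RNA gene, stood at 12.86 (adjusted p = 0.00215), a value that depends on the prior count. It had 106, 103 and 139 counts in AKR and 0, 0 and 0 in B6N after OFL, with at most 2 counts in any naive library. No cause of these differences was tested.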

How the results depend on the processing

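Counts of members called depended on the filter, since most members have few counts. In naive libraries the 1 call between strains became 0 with DESeq2, 0 with a filter of 1 CPM (2 members tested), 0 with a replicate block, 4 of 54 without a filter and 3 of 23 with all libraries in the fit, and 0 to 2 when a library was left out. The 4 calls without a filter were of other members, since Snord7 itself lost its call there (edgeR adjusted p = 0.0605). After OFL the 0 calls became 1 without a filter or with all libraries in the fit, and 0 to 1 when a library was left out. For OFL minus naive in AKR, 18 calls became 29 without a filter, 9 of 10 with a filter of 1 CPM, 11 of 13 with only AKR libraries in the fit, and 18 to 23 when a library was left out. In B6N 19 became 9 of 10 with a filter of 1 CPM and 17 to 21 when a library was left out. The 1 interaction became 0 with DESeq2, 0 with a filter of 1 CPM and 0 to 1 when a library was left out. The block changed no other count by over 1.5 times, and replicate numbers did not pair the libraries (correlations of deviations from -0.0694 to 0.0604). No value reversed. Of the named members' tested values, 525 kept their side of the threshold under other settings and 5 lost the call; with a library left out 622 kept it, 5 became called and 15 lost the call. TMM from protein-coding genes moved the median of all genes for OFL minus naive to 0.117 in AKR and 0.119 in B6N. Members with no exonic overlap or shared stretch, an alternative chosen after seeing the data, kept each count within 1.5 times. Over all genes, calls after OFL fell from 2943 to 1934 without B6N OFL replicate 2. Where both groups of a comparison had 3 counts or fewer summed over their libraries, a difference was not detectable at this depth.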
